A study of Homo sapiens with 21 samples.

Results

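Mitosis and spindle genes were followed in RNA-seq libraries of 2 human cancer cell lines: 42 genes of the mitotic cyclins and kinases, the spindle checkpoint, the kinetochore, the chromosomal passenger complex, the mitotic kinesins, the spindle midzone and the mitotic chromosomes, of 20970 genes listed in the 4 tables used. The rule that chose them used gene symbols and functions and no measured value, and the list was drawn up with earlier results of these data known. All 42 were listed in every table and all 42 passed the filter on low values, which asked for 1 or more in 2 or more libraries of a table, in each of the 5 tested comparisons. Values are the normalized expression values that the authors deposited, CPM after TMM scaling, which corrects for differences in library composition.

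The lines were FADU, from a head and neck squamous carcinoma, and BFTC909, from an upper tract urothelial carcinoma, both kept for 18 h at 18% oxygen (normoxia) or 1% oxygen (hypoxia). In each line, cells with a scrambled control (Scr-si) were sequenced in normoxia and in hypoxia. Cells with a knockdown of METTL4 (METTL4-si), a putative adenine methyltransferase, were sequenced in hypoxia. The paper writes of siRNA vectors, and its methods describe lentiviral shRNA with stable clones selected by antibiotics. FADU clones stably carrying a control vector or METTL4 were sequenced in normoxia. FADU cells in hypoxia were also sequenced as 1 CRISPR control library and 1 library of each of 2 METTL4 mutant clones, in which prime editing had changed the catalytic DPPW motif and which were grown from single cells, so that each clone stands for 1 edited cell. The other groups had 2 libraries each; nothing in the labels says that these came from separate cultures, so that p-values measure the spread between libraries. Each library held between 17781791 and 24864024 reads on genes.

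Cyclin B with CDK1 drives entry into mitosis, and PLK1 and the Aurora kinases build the spindle. The spindle assembly checkpoint holds back CDC20 and the anaphase-promoting complex until kinetochores are attached, after which cyclin B and securin are degraded and the cell divides. Most of these genes are transcribed together in G2 and M phase, under the factors FOXM1 and MYBL2 with the MuvB complex. In resting cells they are repressed by the DREAM complex, through promoter elements that include CHR (cell cycle genes homology region). CCAAT is a separate element of many of their promoters. In bulk RNA, fewer dividing cells and less of these transcripts per cell cannot be told apart.

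The labels were checked on genes with a known direction. CA9, a hypoxia marker gene, stood at 2.33 and 2.55 in FADU normoxia and 31.0 and 37.8 in FADU hypoxia, and at 0.358 and 1.17 in normoxia and at 54.0 and 56.2 in hypoxia in BFTC909. In the libraries labelled METTL4-si, also labelled as hypoxia, CA9 stood at 1.87 and 2.22 in FADU, a log2 fold change of -3.53 ± 0.14 (SE), adjusted p = 5.5e-05 by limma against Scr-si in hypoxia, and at 5.53 and 5.84 in BFTC909 (-3.07 ± 0.21 (SE), adjusted p = 0.0001). In FADU these values lay below those of normoxia, so that CA9 showed no rise over normoxia there despite the hypoxia label. In BFTC909 they lay between those of normoxia and of hypoxia with Scr-si. The paper reports that METTL4 knockdown abolished the expression of Glut1 and REDD1 that hypoxia had activated. With METTL4-si CA9 is thus no check of the oxygen label, and the cause of its low values was not tested. In normoxia CA9 stood at 0.906 and 0.744 with the control vector and at 9.39 and 9.15 with the METTL4 vector. The part of the oxygen response in the members' values was not tested. METTL4 stood at 26.6 and 25.3 in the FADU Scr-si libraries in hypoxia and at 24.2 and 27.1 in the libraries labelled METTL4-si, a log2 fold change of -0.017 ± 0.088 (SE), adjusted p = 0.90 by limma, so that its RNA goes against that label. In BFTC909 it stood at 19.0 and 15.6 with Scr-si and at 14.4 and 12.2 with METTL4-si, a log2 fold change of -0.36 ± 0.13 (SE), adjusted p = 0.072. With the METTL4 vector it rose from 35.4 and 32.7 to 158 and 139. Directions below are therefore those of the libraries labelled METTL4-si.

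A total of 3 libraries stood apart in markers of other cell types. The summed value of the 4 listed luminal breast markers of 6 was 82.8 in FADU normoxia replicate 1 and 411 in FADU METTL4-si replicate 1, against 4.11 to 8.31 in the other 4 FADU knockdown libraries, where TFF1 was at 0. The summed value of the 2 listed fibroblast markers of 6 was 25.6 and 116 in the same libraries and 4.40 to 5.87 in the others. In BFTC909 METTL4-si replicate 2 the only listed luminal breast marker, GREB1, was at 121 against 1.52 to 10.6 in the other BFTC909 libraries, and the 5 listed urothelial and epithelial markers of 9 summed to 1269 against 32.6 to 113. BFTC909 otherwise held little of these markers. Their sum was 113 and 109 in normoxia, where KRT8 was at 7.21 and 7.55, and KRT7, KRT19, UPK2 and UPK3A were not listed. BFTC909 held much of the fibroblast markers. Their sum was 1019.5 and 1114 in normoxia, 4447 and 4652 in hypoxia and 2481 and 2680.4 in the libraries labelled METTL4-si. Of the 5 listed, 5 rose in BFTC909 hypoxia (median log2 fold change 2.04) and 3 fell in the libraries labelled METTL4-si (median -0.66) by the limma call. In FADU all 7 squamous markers were listed and were above 1 in every knockdown library. Of these 7, 4 rose and 1 fell in FADU hypoxia, and 5 fell and 0 rose in the FADU libraries labelled METTL4-si, where 1 was higher without the fold minimum. The part of these markers in the results was not tested beyond the fits without these libraries.

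The promoters were read for the letters of both elements on both strands. For CHR the letters were TTTGAA, and also the form TTCGAA, which reads the same on either strand. For the other element they were CCAAT. The search covered RefSeq windows of 250 bases before to 50 bases after an annotated start, in GRCh38.p14. Windows were found for 35 of the 42 members; AURKA, BUB3, TTK, TPX2, BIRC5, UBE2C and FOXM1 had none. CHR letters stood in 26 of the 35 members (74.3%) and in 19.5% of all 27305 genes with a window. CCAAT letters stood in 28 members (80.0%) and in 39.7% of all genes, and both in 22 members (62.9%) and 9.02% of all genes. These shares count letters and are not binding sites. The windows below run from 150 bases before to 50 after the start, with CHR and CCAAT letters in capitals: 4 with both elements close to the start (CCNB2, PLK1, CDC20, CDCA8), BUB1 with the TTCGAA form, KIF20A with CCAAT letters alone, ANLN, the member that rose in FADU hypoxia, and NDC80, the neighbour of METTL4.
CCNB2, chr15:59104996-59105195, + strand: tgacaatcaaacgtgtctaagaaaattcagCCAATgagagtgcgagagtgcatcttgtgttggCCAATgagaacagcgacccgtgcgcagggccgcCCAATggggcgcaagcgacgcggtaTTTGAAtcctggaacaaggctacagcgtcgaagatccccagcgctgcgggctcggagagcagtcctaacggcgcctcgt
PLK1, chr16:23678739-23678938, + strand: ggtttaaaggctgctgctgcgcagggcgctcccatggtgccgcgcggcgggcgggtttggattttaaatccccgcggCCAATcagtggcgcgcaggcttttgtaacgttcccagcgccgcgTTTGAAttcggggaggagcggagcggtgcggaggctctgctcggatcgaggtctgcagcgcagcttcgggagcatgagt
CDC20, chr1:43358831-43359030, + strand: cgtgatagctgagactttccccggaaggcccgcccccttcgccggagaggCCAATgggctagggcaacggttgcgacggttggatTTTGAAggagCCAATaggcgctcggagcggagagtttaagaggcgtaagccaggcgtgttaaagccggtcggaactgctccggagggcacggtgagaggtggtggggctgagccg
CDCA8, chr1:37692366-37692565, + strand: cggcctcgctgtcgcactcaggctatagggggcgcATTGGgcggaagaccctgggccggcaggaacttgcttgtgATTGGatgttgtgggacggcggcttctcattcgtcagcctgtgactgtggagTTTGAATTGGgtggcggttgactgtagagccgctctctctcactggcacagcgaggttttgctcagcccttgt
BUB1, chr2:110678014-110678213, - strand: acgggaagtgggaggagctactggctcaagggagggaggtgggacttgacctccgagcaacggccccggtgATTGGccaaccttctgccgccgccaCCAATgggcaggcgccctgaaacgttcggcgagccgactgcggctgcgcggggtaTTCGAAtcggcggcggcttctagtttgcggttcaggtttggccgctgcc
KIF20A, chr5:138178962-138179161, + strand: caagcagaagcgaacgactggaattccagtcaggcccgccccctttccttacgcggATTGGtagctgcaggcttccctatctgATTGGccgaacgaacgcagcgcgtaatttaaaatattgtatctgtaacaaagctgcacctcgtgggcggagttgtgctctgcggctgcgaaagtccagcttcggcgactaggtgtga
ANLN, chr7:36389712-36389911, + strand: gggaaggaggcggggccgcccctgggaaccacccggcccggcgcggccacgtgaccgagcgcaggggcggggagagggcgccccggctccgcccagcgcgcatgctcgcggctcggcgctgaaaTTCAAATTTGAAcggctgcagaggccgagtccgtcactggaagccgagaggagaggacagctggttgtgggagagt
NDC80, chr18:2571407-2571606, + strand: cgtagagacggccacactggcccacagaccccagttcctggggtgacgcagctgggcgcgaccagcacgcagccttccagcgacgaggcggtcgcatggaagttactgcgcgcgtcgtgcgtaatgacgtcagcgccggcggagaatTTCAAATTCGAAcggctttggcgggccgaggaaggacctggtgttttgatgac

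In CCNB2 and PLK1 the CHR letters began 29 bases before the start, and in CDC20 65 bases before it, with a second match farther upstream, outside the stretch printed. In CDCA8 the CHR and a CCAAT match shared 1 letter, as in one pair of the MKI67 window. In ANLN a pair of CHR matches lay end to end from 26 bases before the start, with no CCAAT letters in the window. NDC80, which encodes the outer kinetochore protein that grips microtubules, also had a pair of CHR matches end to end, from 3 bases before its start. NDC80 (chr18:2571556-2616634, + strand, GRCh37) and METTL4 (chr18:2537524-2571508, - strand) are divergent neighbours whose annotated ends lie 48 bases apart. MYBL2, CENPE and KIF2C held neither the CHR nor the CCAAT letters in their windows. Other forms of these elements were not searched.

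**Figure D1:**
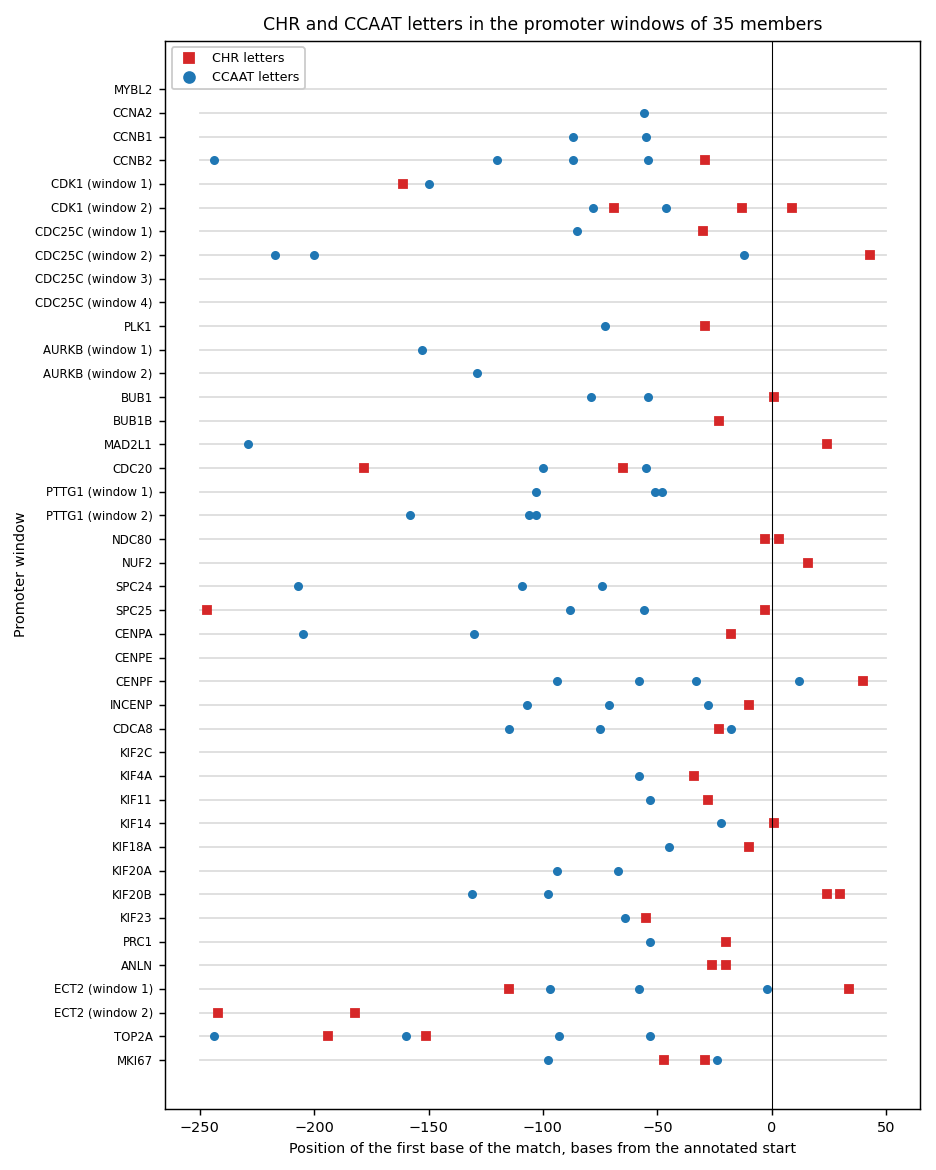
Position of CHR letters (red squares) and CCAAT letters (blue circles) in each RefSeq promoter window of the 35 members, in bases from the annotated start, on either strand. Of 40 CHR matches 31 begin within 65 bases of the start, and of 64 CCAAT matches 63 begin upstream of it. Matches are counted per window, so a site in overlapping windows of a gene counts once in each. Each window holds 250 bases before the start and 50 after it.

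Members differed widely in level. Per kilobase of exon, the highest mean value in FADU normoxia was that of CCNB1, cyclin B1 (129), followed by TPX2, the activator of Aurora A at the spindle (115), MKI67, the proliferation antigen that coats mitotic chromosomes (108), CDC20, the activator of the anaphase-promoting complex (108), and TOP2A, the topoisomerase that untangles sister chromatids (108). The last 3 differed by less than the spread of their libraries. The lowest was CDC25C, the phosphatase that activates CDK1 (6.13). In BFTC909 normoxia the highest values per kilobase were TPX2 (147), ANLN, the cytokinetic ring protein anillin (138), MKI67 (133) and CCNB1 (126), and the lowest again CDC25C (5.40). In GRCh37, CCNB1 lies at chr5:68462962-68474072, CDC20 at chr1:43824652-43828874, BIRC5 at chr17:76210267-76221717, CENPF at chr1:214776528-214837917 and ANLN at chr7:36429430-36493400. The lines come from separately normalized tables, and differences between them were not tested.

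In FADU, hypoxia was compared with normoxia to ask how the division genes respond to low oxygen. A member was called when it changed at least 1.3-fold with a Benjamini-Hochberg adjusted p under 0.05 over all tested genes by limma, on the log2(value + 1) scale. Hypoxia lowered 8 of 42 members (19.0%, against 9.65% of all 16324 tested genes) and raised 1 (2.38%, against 9.73%). The median log2 fold change of the members was -0.25, that of all tested genes -0.026, and 40 of 42 were below 0. Both hypoxia libraries lay below both normoxia libraries for 36 members (39.5% of all tested genes did so) and above them for 2 (33.5%).

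The regulator FOXM1 fell from 313 and 320.0 in normoxia to 236 and 228 in hypoxia, a log2 fold change of -0.45 ± 0.064 (SE), adjusted p = 0.0049. The other regulator, MYBL2, stood at 149 and 141 and then at 122 and 119 (-0.26 ± 0.10 (SE), adjusted p = 0.11). The groups did not overlap for either gene, and FOXM1 passed the test. Among the cyclins and their control genes 1 of 5 fell, CCNB1, from 295 and 332 to 229 and 223 (-0.47 ± 0.082 (SE), adjusted p = 0.0099). CDK1, its kinase, stood at 136 and 157 in normoxia and 139 and 132 in hypoxia, where the groups overlapped (-0.11 ± 0.088 (SE), adjusted p = 0.42).

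Of the 6 kinases, 3 fell. PLK1, which acts from centrosome maturation to cytokinesis, went from 184 and 173 to 134 and 135 (-0.41 ± 0.067 (SE), adjusted p = 0.0079). AURKA, the centrosomal Aurora kinase, went from 107 and 112 to 84.7 and 79.7 (-0.41 ± 0.083 (SE), adjusted p = 0.016). AURKB, the Aurora kinase of the chromosomal passenger complex, fell by 0.45 on the log2 scale (adjusted p = 0.0058), and so did 1 of its partners, CDCA8 (borealin), from 43.0 and 45.5 to 32.4 and 30.1 (-0.49 ± 0.078 (SE), adjusted p = 0.0073). The checkpoint kinase BUB1 stood at 124 and 130.1 in normoxia and at 114 and 108 in hypoxia (-0.19 ± 0.070 (SE), adjusted p = 0.091). Its groups did not overlap, but it missed the threshold.

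Of the 5 checkpoint and anaphase genes only CDC20 was called, from 220.3 and 214 to 168 and 161 (-0.40 ± 0.061 (SE), adjusted p = 0.0059). None of the 7 kinetochore genes and none of the 9 kinesins was called. By limma's unadjusted p under 0.05 the members below 0 numbered 27 in all, and 2 were above 0. Of all 16324 tested genes 6366 had such a p in either direction. EdgeR on whole reads called 6 members down and 1 up, against 1440 down and 1758 up of all tested genes. The kinetochore motor CENPE stood at 220.1 and 237 in normoxia and at 178 and 175 in hypoxia (-0.37 ± 0.099 (SE), adjusted p = 0.039), under the fold minimum. The cytokinesis motor KIF20A stood at 114 and 114 in normoxia and at 103 and 97.9 in hypoxia (-0.19 ± 0.062 (SE), adjusted p = 0.069). On the chromosomes, MKI67 fell from 1399.9 and 1384 to 1076 and 1011 (-0.42 ± 0.088 (SE), adjusted p = 0.018), while TOP2A stood at 646 and 726 in normoxia and at 635 and 639 in hypoxia (-0.10 ± 0.094 (SE), adjusted p = 0.45).

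ANLN rose, from 417 and 441 to 614 and 598 (0.50 ± 0.083 (SE), adjusted p = 0.0086), and was the only member called up. BUB3, the checkpoint scaffold, stood at 157 and 169 in normoxia and at 184 and 188 in hypoxia (0.19 ± 0.072 (SE), adjusted p = 0.099), the other member with both hypoxia libraries above both normoxia libraries. These calls depended on single libraries. Without FADU normoxia replicate 1 or 2, limma called 4 or 1 members down and 0 up, and without hypoxia replicate 1 or 2 it called 0 in either direction, with 21, 15, 16 and 15 members down and 1, 2, 1 and 1 up at an unadjusted p under 0.05. Over all tested genes the calls fell as well, from 1588 up and 1575 down to 398 up and 308 down without hypoxia replicate 2. The members' median stayed between -0.28 and -0.23. Without both FADU libraries that held markers of other cell types, 11 members fell and 1 rose. With libraries centred on their medians 4 members fell and 1 rose, while over all tested genes 1167 fell and 1677 rose.

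Other genes of the pathway were read from lists. Of all tested genes 9.65% were called down and 9.73% up. Of 48 other mitotic genes, 12 fell and 0 rose (1.3-fold and adjusted p; median log2 fold change -0.21), led by CDC25B, a CDK-activating phosphatase (-0.95 ± 0.16 (SE)), and CENPM, a centromere protein (-0.75 ± 0.073 (SE)). Of 19 G1/S and replication genes, 4 fell, led by CCND1, cyclin D1 (-1.05 ± 0.098 (SE)), and MCM5, a helicase subunit (-0.51 ± 0.068 (SE)). Of 17 subunits and partners of the anaphase-promoting complex, 1 rose and 2 fell: ANAPC16 (0.52 ± 0.068 (SE)), and UBE2S (-0.68 ± 0.12 (SE)) with ANAPC2 (-0.42 ± 0.087 (SE)). Of 11 DREAM and MuvB genes, RBL2, which encodes the pocket protein p130, rose (0.61 ± 0.074 (SE)) and E2F5 fell (-0.58 ± 0.13 (SE)). Of 12 tested inhibitors of division, CCNG2, cyclin G2, rose (1.68 ± 0.23 (SE)) with BTG1 (1.33 ± 0.11 (SE)), and PKMYT1, the kinase that restrains CDK1, fell (-0.78 ± 0.12 (SE)).

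In BFTC909 hypoxia lowered 11 of 42 members (26.2%, against 18.3% of all 14869 tested genes) and raised 1 (2.38%, against 17.9%). The median log2 fold change was -0.21 against -0.022 over all tested genes, and 35 members were below 0. Both hypoxia libraries lay below both normoxia libraries for 35 members (43.2% of all tested genes) and above them for 5 (39.0%). With libraries centred on their medians, 8 members fell and 1 rose, and the split over all tested genes moved from 2667 up and 2715 down to 3215 up and 2107 down.

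MYBL2 had the lowest log2 fold change, falling from 161 and 165 in normoxia to 100.3 and 107 in hypoxia (-0.65 ± 0.076 (SE), adjusted p = 0.0006). FOXM1 went from 260.0 and 262 to 199 and 213 (-0.34 ± 0.064 (SE), adjusted p = 0.0044), which stayed under the fold minimum. MAD2L1, the checkpoint protein that binds CDC20, fell from 68.6 and 70.9 to 46.1 and 42.6 (-0.64 ± 0.11 (SE), adjusted p = 0.0026). In all 3 genes the groups were apart. Of the 5 checkpoint and anaphase genes 3 fell, MAD2L1 with CDC20 (-0.56 ± 0.064 (SE), adjusted p = 0.00052) and UBE2C, the ubiquitin-conjugating enzyme of the anaphase-promoting complex (-0.48 ± 0.067 (SE), adjusted p = 0.0013).

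AURKA fell from 203 and 204 to 131 and 140.0 (-0.59 ± 0.064 (SE), adjusted p = 0.00043), and PLK1 from 159.5 and 163 to 112 and 119 (-0.48 ± 0.066 (SE), adjusted p = 0.0012). These were the 2 of 6 kinases called. BUB1 stood at 246 and 247 in normoxia and at 240.3 and 238 in hypoxia (-0.042 ± 0.075 (SE), adjusted p = 0.68). CCNB1 went from 306 and 307 to 234 and 241 (-0.37 ± 0.077 (SE), adjusted p = 0.0071), under the fold minimum, and CDK1 from 166 and 162 to 139.9 and 127 (-0.30 ± 0.11 (SE), adjusted p = 0.063). CCNA2, cyclin A2, was the 1 of 5 cyclin and CDK1 control genes called (-0.47 ± 0.082 (SE), adjusted p = 0.0034), and BIRC5, the passenger protein survivin, the 1 of 4 passenger genes (-0.53 ± 0.079 (SE), adjusted p = 0.0016).

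CENPF, a large protein of the outer kinetochore, rose from 828 and 818 to 1089.9 and 1106 (0.41 ± 0.088 (SE), adjusted p = 0.0076). It was the only member called up and lost its call without any one of the 4 libraries compared, when 8 to 11 members fell and 0 rose by limma, with 1 up at an unadjusted p under 0.05 each time. KIF20A stood at 190.2 and 189 in normoxia and 206 and 211 in hypoxia (0.14 ± 0.076 (SE), adjusted p = 0.17), CENPE at 178 and 169 in normoxia and at 158 and 151 in hypoxia (-0.16 ± 0.078 (SE), adjusted p = 0.13). The groups of KIF20A and CENPE did not overlap, but neither gene was called. TOP2A stood at 711 and 717 in normoxia and at 706 and 701 in hypoxia (-0.021 ± 0.090 (SE), adjusted p = 0.87), and MKI67 at 1733 and 1693 in normoxia and at 1559 and 1543 in hypoxia (-0.14 ± 0.070 (SE), adjusted p = 0.13). The remaining calls were SPC25 of the kinetochore (-0.45), the kinesin KIF18A (-0.40) and ECT2, the exchange factor that starts furrowing (-0.42), all down on the log2 scale.

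Of the 19 G1/S and replication genes 14 fell and 0 rose (median -0.54), led by CCND1 (-2.75 ± 0.43 (SE)) and CCNE1, cyclin E1 (-0.84 ± 0.12 (SE)). Of all tested genes 18.3% were called down and 17.9% up. Of 48 other mitotic genes 5 fell, a smaller share, and 0 rose (median -0.14). The lowest called were MIS18A (-0.62 ± 0.094 (SE)) and ZWINT (-0.48 ± 0.073 (SE)), both of the centromere and kinetochore. Of 17 genes of the anaphase-promoting complex 4 fell, led by ANAPC13 (-0.93 ± 0.10 (SE)) and UBE2S (-0.67 ± 0.088 (SE)). Of 11 DREAM and MuvB genes 4 fell, led by E2F4 (-0.74 ± 0.10 (SE)) and E2F5 (-0.73 ± 0.11 (SE)). Of 11 tested inhibitors of division 4 rose and 1 fell. CCNG2 rose (2.12 ± 0.13 (SE)), CDKN1C, the CDK inhibitor p57, rose from 6.62 and 6.46 to 20.8 and 19.9, and GADD45A fell (-0.52 ± 0.11 (SE)).

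Of the 8 members called down in FADU and the 11 called down in BFTC909, 3 were in both sets, AURKA, CDC20 and PLK1, which is 37.5% of the first and 27.3% of the second. Of all members 26.2% were called down in BFTC909 and 19.0% in FADU, and of all tested genes 18.3% and 9.65%. The share of all tested genes called down in both lines was not counted. The members called up were different genes, ANLN in FADU and CENPF in BFTC909.

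**Figure D2:**
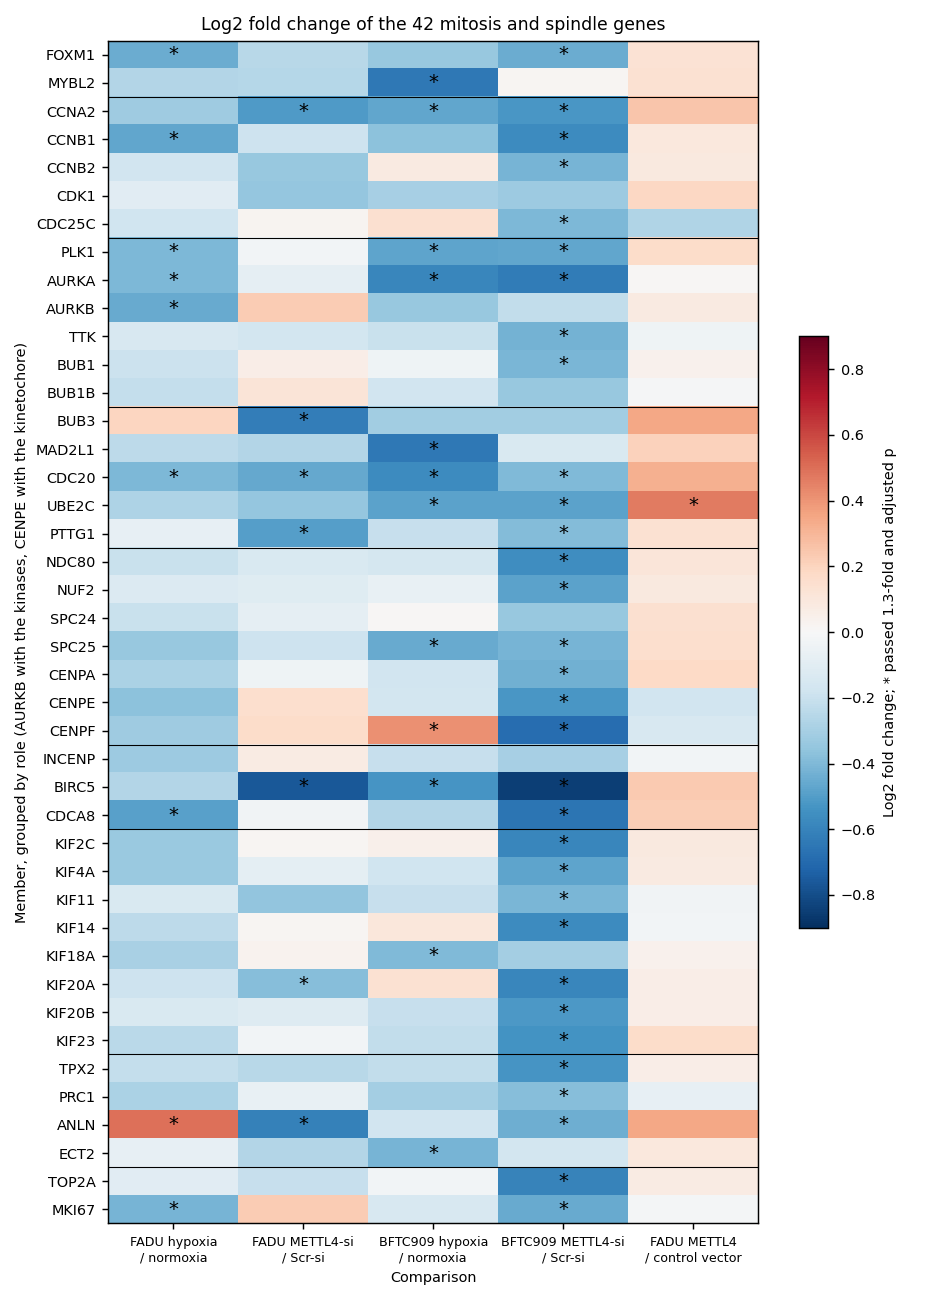
Log2 fold change (colour, blue lower and red higher) of the 42 members (rows, grouped by role) in the 5 tested comparisons (columns); a star marks a change of at least 1.3-fold with a limma adjusted p under 0.05. In the column of BFTC909 libraries labelled METTL4-si 32 of 42 members hold a star, all lower, and the overexpression column holds 1, UBE2C.

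The libraries labelled METTL4-si were compared with Scr-si in hypoxia, the same Scr-si libraries that serve as the hypoxia group above, so that the 2 sets of values are not independent. In FADU 7 of 42 members were lower in the libraries labelled METTL4-si (16.7%, against 15.3% of all tested genes) and 0 higher (against 12.5%). At an unadjusted p under 0.05 limma had 2 members above 0 and 16 below. Of all 16324 tested genes 7414 had such a p in either direction. EdgeR on whole reads called 7 members down and 0 up, against 2609 down and 2037 up of all tested genes. With libraries centred on their medians 11 members were lower and 0 higher by limma (0 higher also at an unadjusted p under 0.05), while over all tested genes 2810 were lower and 1633 higher, against 2496 and 2038 without centring. The median log2 fold change was -0.13, against 0.016 over all tested genes, and 31 members were below 0. Both libraries labelled METTL4-si lay below both Scr-si libraries for 21 members (34.4% of all tested genes) and above them for 4 (33.9%).

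BIRC5 was lowest against its control, from 160.5 and 157 with Scr-si to 93.8 and 93.0 in the libraries labelled METTL4-si (-0.76 ± 0.059 (SE), adjusted p = 0.00041). BUB3 went from 184 and 188 to 126 and 116 (-0.62 ± 0.072 (SE), adjusted p = 0.0014), and ANLN from 614 and 598 to 371 and 424 (-0.61 ± 0.083 (SE), adjusted p = 0.0026). In BIRC5 and BUB3 the lower libraries also lay below those of normoxia. The other calls were CCNA2 (-0.51 ± 0.067 (SE), adjusted p = 0.0022), PTTG1, which encodes securin (-0.50 ± 0.092 (SE), adjusted p = 0.0075), CDC20 (-0.46 ± 0.061 (SE), adjusted p = 0.0022) and KIF20A, from 103 and 97.9 to 77.5 and 76.0 (-0.38 ± 0.062 (SE), adjusted p = 0.0048). By role these were 3 of 5 checkpoint and anaphase genes, 1 of 4 passenger genes, 1 of 5 cyclin and CDK1 control genes, 1 of 9 kinesins and 1 of 4 spindle and cytokinesis genes. The share of members called lay near that of all tested genes (16.7% against 15.3%), so the split by role is a description alone.

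No kinase, kinetochore gene, regulator or chromosome gene was called by limma. PLK1 stood at 136 and 128 in the libraries labelled METTL4-si (-0.028 ± 0.067 (SE), adjusted p = 0.78), AURKA at 82.5 and 72.7 (-0.084 ± 0.083 (SE), adjusted p = 0.47) and BUB1 at 112 and 119.5 (0.058 ± 0.070 (SE), adjusted p = 0.55). Their values overlapped those with Scr-si. CCNB1 stood at 190.4 and 208 (-0.18 ± 0.082 (SE), adjusted p = 0.13) and CDK1 at 102 and 111 (-0.35 ± 0.088 (SE), adjusted p = 0.023), both below Scr-si but without a call. FOXM1 was at 189 and 201 (-0.25 ± 0.064 (SE), adjusted p = 0.025) and MYBL2 at 112 and 90.4 (-0.26 ± 0.10 (SE), adjusted p = 0.10). TOP2A was at 515 and 589 (-0.21 ± 0.094 (SE), adjusted p = 0.13). CENPE at 178 and 216 (0.15 ± 0.099 (SE), adjusted p = 0.27) and MKI67 at 1153 and 1301 (0.23 ± 0.088 (SE), adjusted p = 0.084) lay above Scr-si in both libraries, as did AURKB (0.23 ± 0.068 (SE), adjusted p = 0.039).

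Both libraries labelled METTL4-si differed from each other in many members, for example CENPF at 482 and 597. The median was -0.22 without METTL4-si replicate 2 and -0.097 without replicate 1, the library with markers of other cell types. Without both FADU libraries that held such markers, 9 members were lower and 0 higher by limma (7 above 0 at an unadjusted p under 0.05). Of 48 other mitotic genes 4 were higher and 5 lower, smaller shares than the 12.5% and 15.3% of all tested genes. Among them CDC25B (0.81 ± 0.16 (SE)) and CDCA3 (0.42 ± 0.067 (SE)) were higher and CENPW (-0.77 ± 0.12 (SE)) and CEP55 (-0.74 ± 0.089 (SE)) lower. Of 19 G1/S genes CCND1 was higher (0.96 ± 0.098 (SE)) and 6 were lower, led by PCNA, the replication clamp (-0.69 ± 0.089 (SE)), and CCNE2 (-0.66 ± 0.19 (SE)). Of 11 DREAM and MuvB genes E2F5 was higher (0.52 ± 0.13 (SE)) and 4 were lower, led by RB1 (-0.74 ± 0.063 (SE)) and TFDP1 (-0.69 ± 0.073 (SE)). Of 17 genes of the anaphase-promoting complex, 2 were lower, also a smaller share than the 15.3% of all tested genes: ANAPC16 (-0.79 ± 0.068 (SE)) and CDC26 (-0.62 ± 0.11 (SE)). Of 12 tested inhibitors of division 5 were lower, led by CCNG2 (-1.79 ± 0.23 (SE)) and BTG1 (-1.10 ± 0.11 (SE)), and PKMYT1 was higher (0.48 ± 0.12 (SE)).

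In BFTC909 the members were lower almost throughout. In the libraries labelled METTL4-si 32 of 42 members fell against Scr-si in hypoxia (76.2%, against 11.7% of all tested genes). A rise was called in 0 members, against 13.2% of all tested genes. At an unadjusted p under 0.05 limma had 39 members below 0 and 0 above. Of all 14869 tested genes 6496 had such a p in either direction. EdgeR on whole reads called 31 members down and 0 up, against 1802 down and 1981 up of all tested genes. The median log2 fold change was -0.44, against 0.010 over all tested genes, and 41 members were below 0. Both libraries labelled METTL4-si lay below both Scr-si libraries for 39 members (32.0% of all tested genes) and above them for none (32.7%). METTL4 RNA itself did not pass the test here.

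By role, 8 of 9 kinesins, 6 of 7 kinetochore genes, 4 of 5 cyclin and CDK1 control genes, 4 of 6 kinases, 3 of 5 checkpoint and anaphase genes, 3 of 4 spindle and cytokinesis genes, 2 of 4 passenger genes, both chromosome genes and 1 of 2 regulators fell. BIRC5 fell most, from 122 and 129.6 with Scr-si to 73.8 and 64.9 (-0.85 ± 0.079 (SE), adjusted p = 0.00038). CENPF fell from 1089.9 and 1106 to 742 and 626 (-0.69 ± 0.088 (SE), adjusted p = 0.0015), below its normoxia values. CDCA8 (-0.66 ± 0.082 (SE), adjusted p = 0.0013) followed.

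AURKA fell from 131 and 140.0 to 87.7 and 86.5 (-0.63 ± 0.064 (SE), adjusted p = 0.00051), PLK1 from 112 and 119 to 80.8 and 85.6 (-0.47 ± 0.066 (SE), adjusted p = 0.0022) and BUB1 from 240.3 and 238 to 192 and 168 (-0.41 ± 0.075 (SE), adjusted p = 0.0062). All 3 kinases lay below Scr-si in both libraries, and AURKA and PLK1 had already been lower in hypoxia than in normoxia. CCNB1 fell from 234 and 241 to 171 and 149.6 (-0.56 ± 0.077 (SE), adjusted p = 0.0018), and CDK1 stood at 139.9 and 127 and then 119 and 94.0 (-0.33 ± 0.11 (SE), adjusted p = 0.062). CDK1 lay under the fold minimum and was the 1 cyclin and CDK1 control gene without a call.

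The motors CENPE, from 158 and 151 to 114 and 101 (-0.52 ± 0.078 (SE), adjusted p = 0.0027), and KIF20A, from 206 and 211 to 148 and 129.7 (-0.59 ± 0.076 (SE), adjusted p = 0.0015), fell. The other kinesins called were KIF2C, a microtubule depolymerase (-0.59), KIF14 (-0.56), KIF23, a subunit of centralspindlin (-0.54), KIF20B (-0.51), KIF4A, a chromokinesin (-0.47), and KIF11, the motor that separates the spindle poles (-0.41), all log2 fold changes. KIF18A had -0.30 ± 0.12 (SE), adjusted p = 0.089 and missed the call. NDC80 fell from 47.0 and 52.5 to 37.5 and 29.7 (-0.56 ± 0.12 (SE), adjusted p = 0.010), with its partner NUF2 (-0.48 ± 0.097 (SE), adjusted p = 0.0091).

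TOP2A fell from 706 and 701 to 507 and 423 (-0.60 ± 0.090 (SE), adjusted p = 0.0027) and MKI67 from 1559 and 1543 to 1167 and 1097 (-0.45 ± 0.070 (SE), adjusted p = 0.003). FOXM1 fell from 199 and 213 to 154 and 148 (-0.44 ± 0.064 (SE), adjusted p = 0.0024). MYBL2, the other regulator, stood at 100.3 and 107 with Scr-si and 99.5 and 111 in the libraries labelled METTL4-si (0.018 ± 0.076 (SE), adjusted p = 0.88), the one member above 0, and its groups overlapped. MAD2L1 (-0.14 ± 0.11 (SE), adjusted p = 0.35) and ECT2 (-0.17 ± 0.12 (SE), adjusted p = 0.34) overlapped too.

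Single libraries moved this count. Limma called 18 members lower without Scr-si replicate 1 or without replicate 2, 36 without METTL4-si replicate 1 and 21 without METTL4-si replicate 2, the library with the markers of other cell types, and 0 higher each time, also at an unadjusted p under 0.05. Without that library the median was -0.38 and without its partner -0.57. With libraries centred on their medians 37 members fell, the median was -0.54, and the split over all tested genes moved from 1968 up and 1736 down to 1489 up and 2510 down. No alternative tried for this comparison turned the direction of the members' median.

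Of 48 other mitotic genes 24 fell and 0 rose (median -0.38), led by GTSE1 (-0.78 ± 0.074 (SE)) and the condensin subunit SMC2 (-0.74 ± 0.099 (SE)). Of all tested genes 11.7% were called lower and 13.2% higher. Of 17 genes of the anaphase-promoting complex 5 fell (median -0.042), led by UBE2S (-0.68 ± 0.088 (SE)) and FBXO5, an inhibitor of the complex (-0.49 ± 0.12 (SE)). Of 19 G1/S genes 5 fell and 1 rose (median -0.11): RRM2 of ribonucleotide reductase (-0.86 ± 0.070 (SE)) and TYMS, thymidylate synthase (-0.77 ± 0.075 (SE)), led those lower, and CCND1 was higher (1.45 ± 0.43 (SE)). Of 11 DREAM and MuvB genes 3 fell, led by LIN54, the MuvB subunit that reads CHR elements (-0.53 ± 0.090 (SE)), and TFDP1 (-0.48 ± 0.087 (SE)), and E2F5 rose (0.51 ± 0.11 (SE)). Of 11 tested inhibitors of division 4 fell, led by CDKN1C (-1.61 ± 0.11 (SE)) and CCNG2 (-1.23 ± 0.13 (SE)), and 1 rose, CDKN1A, the CDK inhibitor p21, from 3.13 and 3.11 with Scr-si to 7.46 and 15.4 (1.51 ± 0.27 (SE), adjusted p = 0.006). The higher CDKN1A value was in the library with markers of other cell types.

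Set side by side, 6 members were called lower in the libraries labelled METTL4-si of both lines, ANLN, BIRC5, CCNA2, CDC20, KIF20A and PTTG1, which is 85.7% of the 7 in FADU and 18.8% of the 32 in BFTC909. These shares lay near those of all members called lower, 76.2% in BFTC909 and 16.7% in FADU. Of all tested genes 11.7% were called lower in BFTC909 and 15.3% in FADU, and the share called in both was not counted. BIRC5 had the lowest log2 fold change of all members in each line (-0.76 in FADU and -0.85 in BFTC909). AURKB, CENPE, INCENP and MKI67 lay above Scr-si in both FADU libraries and below it in both BFTC909 libraries. Of all tested genes 33.9% lay above in FADU and 32.0% below in BFTC909, and the share that did both was not counted. The difference between the lines was not tested, since the tables were normalized separately.

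**Figure D3:**
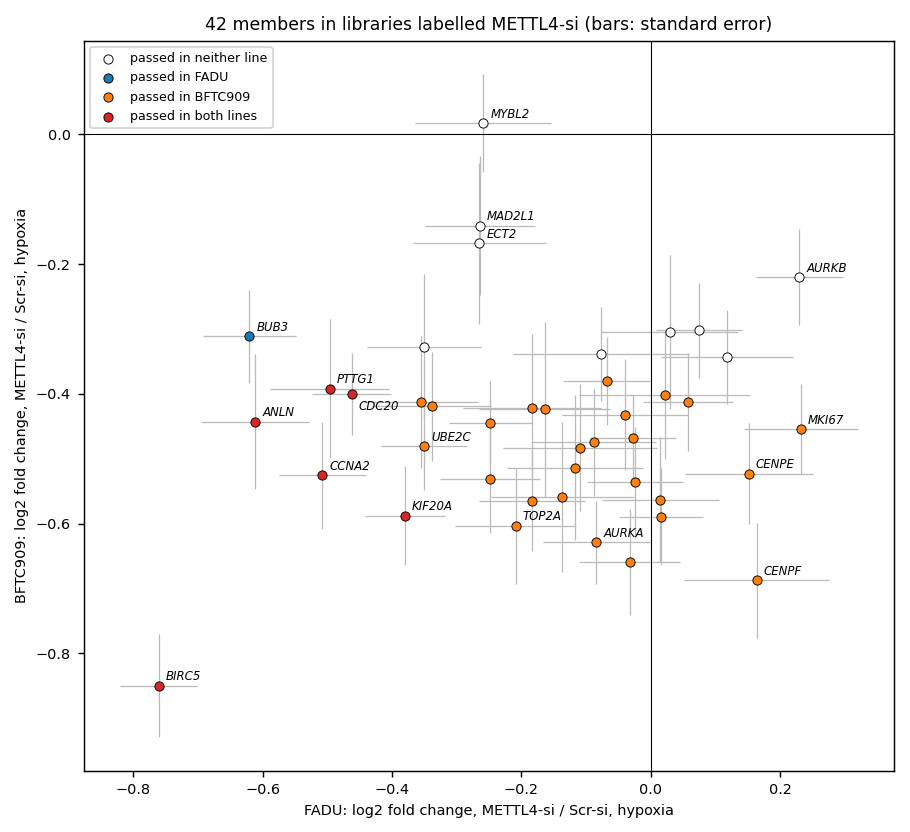
Log2 fold change of each member in libraries labelled METTL4-si against Scr-si in hypoxia, FADU on the horizontal and BFTC909 on the vertical axis, with standard errors as bars and colours for the limma calls. All members but MYBL2 lie below 0 in BFTC909, while in FADU they spread from -0.76 (BIRC5) to 0.23 (MKI67).

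Overexpression of METTL4 in FADU in normoxia was compared with the control vector. In the METTL4 libraries 1 of 42 members was higher (2.38%, against 8.12% of all 15218 tested genes) and 0 were lower (against 10.6%). At an unadjusted p under 0.05 limma had 3 members below 0 and 16 above. Of all tested genes 7341 had such a p in either direction. EdgeR on whole reads called 0 members lower. These were stable clones, so differences between clones and the METTL4 vector cannot be told apart. The median log2 fold change was 0.087, against 0.008 over all tested genes, and 32 members were above 0. Both METTL4 libraries lay above both control libraries for 30 members (36.6% of all tested genes did so) and below them for 5 (33.6%). Without the fold minimum 13 members passed the adjusted p upward and 3 downward, against 3252 and 2792 of all 15218 tested genes.

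UBE2C rose from 75.9 and 87.5 with the control vector to 112 and 114 with METTL4 (0.47 ± 0.062 (SE), adjusted p = 0.00012). It lost the call without control replicate 1, when limma called 0 in either direction (17 up and 4 down at an unadjusted p under 0.05), and 2 members were called up without control replicate 2. Further checkpoint and anaphase genes passed the adjusted p under the fold minimum, BUB3 from 167 and 167 to 209 and 217 (0.35 ± 0.042 (SE), adjusted p = 6.3e-05), CDC20 (0.32 ± 0.052 (SE), adjusted p = 0.00057) and MAD2L1 (0.21 ± 0.048 (SE), adjusted p = 0.0051). ANLN, from 443 and 433 to 559 and 556, did too (0.35 ± 0.038 (SE), adjusted p = 3.3e-05). BIRC5 was at 181 and 184 with the control vector and at 216 and 215 with METTL4 (0.23 ± 0.040 (SE), adjusted p = 0.0008).

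For regulators, cyclins and kinases the differences stayed under the fold minimum. FOXM1 stood at 295 and 311 with the control vector and at 340.1 and 323 with METTL4 (0.13 ± 0.044 (SE), adjusted p = 0.037), and MYBL2 at 125 and 124 with the control vector and at 139 and 135 with METTL4 (0.14 ± 0.043 (SE), adjusted p = 0.025). CCNB1 stood at 308 and 319 with the control vector and at 329 and 341 with METTL4 (0.094 ± 0.041 (SE), adjusted p = 0.091). In these genes the METTL4 libraries lay above the control libraries, without a call. CDK1 stood at 157 and 149 with the control vector and at 176 and 172 with METTL4 (0.19 ± 0.044 (SE), adjusted p = 0.0055) and PLK1 at 168 and 164 with the control vector and at 191 and 181 with METTL4 (0.16 ± 0.044 (SE), adjusted p = 0.013). AURKA, at 115 and 117 with the control vector and at 116 and 117 with METTL4, overlapped between groups (0.011 ± 0.044 (SE), adjusted p = 0.86), as did MKI67, at 1304 and 1322 with the control vector and at 1277 and 1318 with METTL4 (-0.017 ± 0.040 (SE), adjusted p = 0.76).

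BUB1 stood at 133 and 129.8 with the control vector and at 133 and 137 with METTL4 (0.039 ± 0.044 (SE), adjusted p = 0.51), TOP2A at 702 and 716 with the control vector and at 738 and 757 with METTL4 (0.077 ± 0.039 (SE), adjusted p = 0.14) and KIF20A at 106 and 107 with the control vector and at 113 and 109 with METTL4 (0.059 ± 0.045 (SE), adjusted p = 0.33). CENPE lay lower with METTL4, at 237 and 239 with the control vector and at 209.7 and 212 with METTL4 (-0.17 ± 0.040 (SE), adjusted p = 0.0047), with CENPF (-0.14 ± 0.038 (SE), adjusted p = 0.012) and CDC25C (-0.27 ± 0.081 (SE), adjusted p = 0.019), all under the fold minimum. NDC80, the neighbour of METTL4, stood at 73.4 and 76.6 with the control vector and at 78.3 and 83.9 with METTL4 (0.11 ± 0.053 (SE), adjusted p = 0.12). Of 48 other mitotic genes HJURP, the CENPA chaperone, rose (0.42 ± 0.049 (SE)) and CDC25B fell (-0.41 ± 0.050 (SE)). Of all tested genes 8.12% were called up and 10.6% down. Of 19 G1/S genes 3 rose, led by CCNE2 (0.77 ± 0.079 (SE)) and RRM2 (0.55 ± 0.043 (SE)), and of 12 tested inhibitors of division 4 rose, led by GADD45A (1.01 ± 0.10 (SE)) and CDKN1A, from 7.87 and 9.86 to 16.2 and 14.5 (0.73 ± 0.11 (SE)). Of 17 genes of the anaphase-promoting complex 2 rose, ANAPC13 (0.47 ± 0.077 (SE)) and FBXO5 (0.39 ± 0.061 (SE)), and of 11 DREAM and MuvB genes 0 were called by limma.

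In the METTL4 mutant clones the members lay above the CRISPR control. With 1 control library and 1 library per clone there is no replicate check and no test, and log2 ratios of (value + 1) are given. A total of 12 of 42 members (28.6%) were at least 1.3-fold higher in both clones, against 8.94% of all 15719 genes of the table, and 0 were at least 1.3-fold lower in both, against 11.8%. The mean of the clones' log2 ratios had a median of 0.34 over the members (0.35 in clone 1 and 0.36 in clone 2) and of -0.0040 over all genes. In 38 members both clones lay above the control and in none below it. Of all 15719 genes, 6222 lay above the control in both clones and 6398 below it in both. The members CCNB2, BUB1, BUB1B and PRC1 had 1 clone on each side.

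CCNA2 stood at 39.1 in the control, 67.0 in clone 1 and 71.3 in clone 2 (log2 ratios 0.76 and 0.85). MAD2L1 stood at 26.03 in the control, 42.2 in clone 1 and 48.0 in clone 2 (0.68 and 0.86). CDC20 stood at 72.9 in the control, 119 in clone 1 and 109 in clone 2 (0.70 and 0.57). These 3 had the largest mean ratios, and FOXM1 came next, at 111 in the control, 157 in clone 1 and 176 in clone 2 (0.50 and 0.66). CDK1, KIF11, MKI67, AURKA, KIF4A, AURKB, KIF20B and TPX2 were the other members at least 1.3-fold higher in both clones. CCNB1 was at 103 in the control, 125 in clone 1 and 133 in clone 2 (0.28 and 0.36), and BUB1 at 57.8 in the control, 50.9 in clone 1 and 60.3 in clone 2 (-0.18 and 0.060).

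Of 48 other mitotic genes 21 were at least 1.3-fold higher in both clones and 0 lower (median 0.38), and of 19 G1/S genes 7 were higher and 0 lower (median 0.38). Of the inhibitors of division 2 were higher and 6 lower; CDKN1A stood at 16.5 in the control, 6.64 in clone 1 and 6.47 in clone 2. CA9, the hypoxia marker, stood at 29.8, 10.4 and 15.2 in the same order. Clone differences and the edit cannot be told apart from 1 control library.

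**Figure D4:**
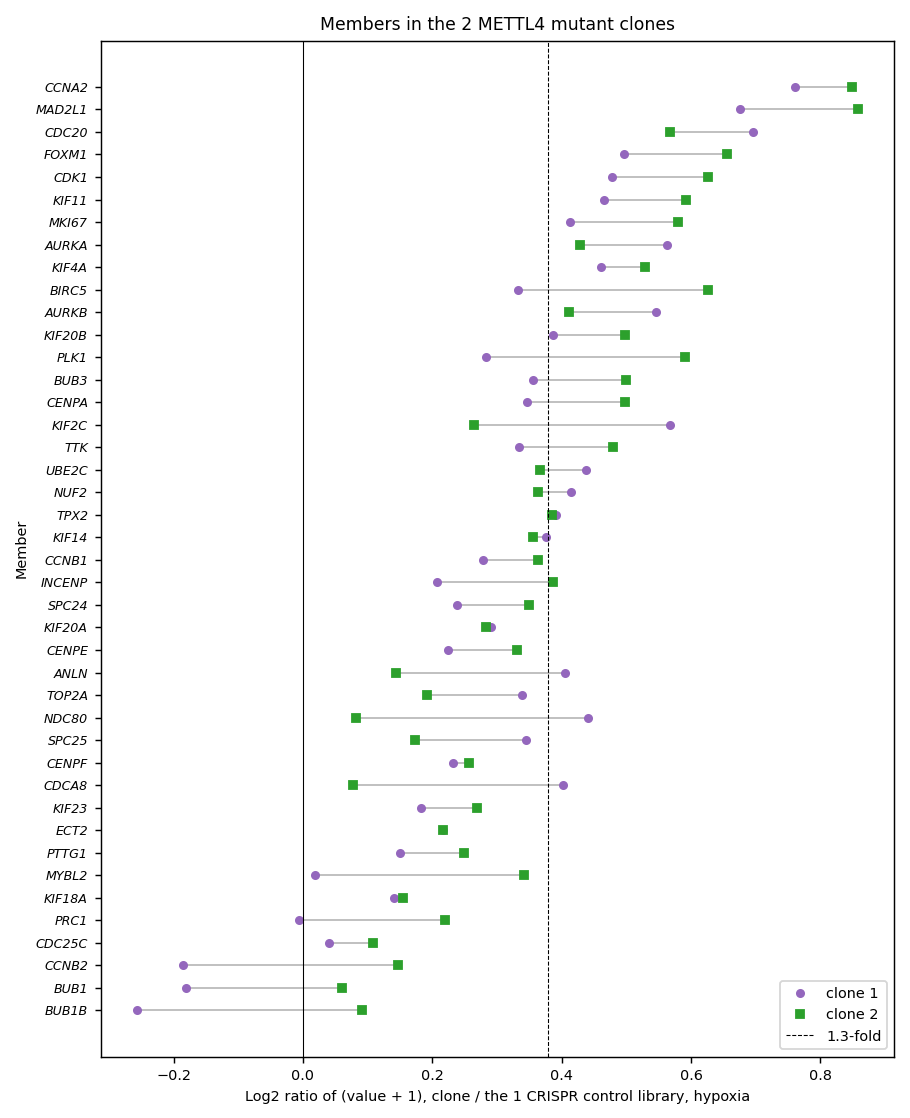
Log2 ratio of (value + 1) of each member in METTL4 mutant clone 1 (circles) and clone 2 (squares) to the 1 CRISPR control library in hypoxia, sorted by their mean; the dashed line is 1.3-fold. Both points lie right of 0 in 38 of 42 members, and none of the other 4 has both points left of it. Of all 15719 genes, which are not drawn, 6222 had both ratios above 0 and 6398 had both below 0.

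Over the 5 tested comparisons, CDC20 was the member called lower most often, in 4 of them, both hypoxia and both METTL4-si comparisons. AURKA, BIRC5, CCNA2 and PLK1 were called lower in 3, 9 further members in 2 and 24 in 1. BUB1B, CDK1, INCENP and SPC24 were never called. Within each line the hypoxia and METTL4-si comparisons share the Scr-si hypoxia libraries, so these calls are not independent. The same tally was not made over all tested genes. The values of ANLN in FADU were 417 and 441 in normoxia, 614 and 598 in hypoxia and 371 and 424 in hypoxia in the libraries labelled METTL4-si. Some members share exons with other genes and the strand setting of the counting is not given in the sources used here: 3181 bases of PRC1 lie in a gene model on the same strand, FOXM1 shares 782 bases with ITFG2 and PLK1 553 with a noncoding RNA on the opposite strand, and KIF4A and PTTG1 have near-identical copies, so that their values are less certain.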

How the data were processed

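RNA was sequenced from FADU and BFTC909 cells after ribosomal RNA removal with a stranded kit. Reads were trimmed by the authors (Trim Galore) and mapped to the hg19 genome (HISAT2); htseq-count then gave counts per gene, which were scaled by the TMM method of edgeR. The authors deposited these signal values as CPM after TMM scaling, in 4 tables that were normalized separately. Tool versions, the gene annotation and the strand setting of the counting are not given in the sources used here. The deposited gene tables of the authors' own comparisons, which hold fold changes, mean levels and p-values, were not used, and 2 columns of the overexpression table that matched no label were left out.

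Gene identifiers were matched to symbols, and gene positions came from the GRCh37 annotation. Values were tested as log2(value + 1) with limma 3.58.1 (trend, moderated variance) in R 4.3.3, two-sided, for genes at 1 or more in 2 or more libraries of a table. All groups of a table shared one estimate of the spread, and p-values were adjusted by the Benjamini-Hochberg method over all tested genes. Standard errors are those of the fit. A call needed a change of 1.3-fold and an adjusted p under 0.05. Log2 fold changes on this scale understate the change of low genes. The mutant clones were compared with their control by ratios alone. The script was tested on simulated data. Whole reads were recovered from the deposited values of the knockdown and overexpression tables (100% of values within 0.01 of a whole number) and tested with edgeR 4.0.16 as an alternative. Those reads gave the depth of each library, which covers counting error only. In the mutant table rows that named no gene took 40.9 to 43.0% of the summed values; these were left out, so that levels in that table are not comparable with the others.

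Libraries with the same replicate number showed correlations of -0.0652 to 0.154 in their deviations, apart from 0.648 between FADU normoxia and FADU METTL4-si, and were not treated as pairs. The named members were 11 fixed ones (CCNB1, CDK1, PLK1, AURKA, BUB1, CENPE, KIF20A, TOP2A, MKI67, FOXM1 and MYBL2) and the 2 largest called in each direction of each comparison, and other members were named by role after their values were seen. From each further list, the 2 largest called in each direction were named. The members and lists were chosen with earlier results of these data known. Promoter windows were taken from RefSeq (GRCh38.p14).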

Additional observations from a re-analysis of the deposited data

Results flagged for a closer look

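For 10 pairs of values every library of one line lay on one side of its control and every library of the other line on the opposite side. The difference between the lines was not tested. With 2 libraries a group such separation was common among all tested genes. In hypoxia against normoxia 39.5% lay lower and 33.5% higher in FADU, and 43.2% lower and 39.0% higher in BFTC909. In the libraries labelled METTL4-si 34.4% lay lower and 33.9% higher in FADU, and 32.0% lower and 32.7% higher in BFTC909. The share of all genes on opposite sides in the 2 lines was not counted, so these pairs are a description alone. In hypoxia against normoxia 6 members lay on opposite sides, given as log2 fold changes. CCNB2 had -0.17 in FADU and 0.084 in BFTC909. BUB3 had 0.19 in FADU and -0.31 in BFTC909. CENPF had -0.32 in FADU and 0.41 in BFTC909. KIF14 had -0.24 in FADU and 0.10 in BFTC909. KIF20A had -0.19 in FADU and 0.14 in BFTC909. ANLN had 0.50 in FADU and -0.17 in BFTC909. In the libraries labelled METTL4-si against Scr-si in hypoxia 4 members did so. AURKB had 0.23 in FADU and -0.22 in BFTC909. CENPE had 0.15 in FADU and -0.52 in BFTC909. INCENP had 0.074 in FADU and -0.30 in BFTC909. MKI67 had 0.23 in FADU and -0.45 in BFTC909. Of these values, ANLN in FADU hypoxia, CENPF in BFTC909 hypoxia, and CENPE and MKI67 in BFTC909 METTL4-si passed the limma test with the 1.3-fold minimum.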

How the results depend on the processing

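The direction of the members' median held under every alternative run in each comparison. Over the settings run for the summary values, 210 stayed near the reported value (counts within 1.5 times, medians within the replicate spread) and 35 moved further, and for the named genes 955 kept their side of the threshold, 40 lost the call and 19 gained it. Without the fold minimum, limma called 16 members down in FADU hypoxia, and 1 up and 13 down in FADU METTL4-si. It called 17 down in BFTC909 hypoxia, and 13 up and 3 down with METTL4 overexpression. The same counts over all tested genes were 2065 of 16324 down in FADU hypoxia and 2478 up and 3182 down in FADU METTL4-si. They were 3638 of 14869 down in BFTC909 hypoxia, and 3252 up and 2792 down of 15218 with overexpression. With libraries centred on the median, 4 members fell in FADU hypoxia (median -0.20) and 11 in FADU METTL4-si (median -0.17), and the median was -0.14 in BFTC909 hypoxia, -0.54 in BFTC909 METTL4-si and 0.36 in the mutant clones, where a pseudocount of 5 gave 0.32. The cause was not tested. Leaving out 1 library at a time gave 0 to 1 members up and 0 to 8 down in FADU hypoxia, 0 to 1 up in BFTC909 hypoxia, 18 to 36 down in BFTC909 METTL4-si and 0 to 2 up with overexpression; medians ran from -0.22 to -0.097 in FADU METTL4-si, from -0.57 to -0.38 in BFTC909 METTL4-si and from 0.35 to 0.36 in the mutant clones. Leaving out a library in a group of 2 assumes that the lone sample varies like the other groups. The fit without both FADU libraries with markers of other cell types was among the alternatives.

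With the replicate block, limma called 1 member up and 8 down in FADU hypoxia, 0 and 7 in FADU METTL4-si, 1 and 11 in BFTC909 hypoxia, 0 and 32 in BFTC909 METTL4-si, and 1 and 0 with overexpression, the same counts as without it. The 2 planned comparisons of RP11-390F4.3 were not run, and for overexpression the fit of the compared groups alone was the fit reported.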
